A study of Rattus norvegicus with 10 samples.

Results

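The genes described here are 10 that mark mast cells, the granule-filled tissue cells that carry IgE on their surface and release histamine and proteases when it is cross-linked. They are the carboxypeptidase Cpa3, the chymase Cma1, the tryptases Tpsab1 and Tpsb2, the chymases Mcpt1 and Mcpt2, the IgE receptor chains Fcer1a and Ms4a2, the histamine-making enzyme Hdc and the growth factor receptor Kit. Every probe set that the platform annotation assigns to 1 of these symbols alone was taken, which gave 10 probe sets for 9 of the 10 genes, among 12255 genes tested in all. Mcpt2 had no probe set under its own symbol and was not analysed here under that name. The level of each probe set was measured on 10 Affymetrix Rat Genome 230 2.0 arrays, 1 for each of 2 samples from 5 mammary tumors, whose codes are 09I1, 11D2, 12I1, 29I1 and 43D1. Levels are on a log2 scale after robust multichip averaging (RMA), so that 1 log2 unit is a 2-fold difference.

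All tumors arose in female Sprague-Dawley rats given the carcinogen 7,12-dimethylbenz(a)anthracene (DMBA) once by mouth at 100 mg/kg, and all were chosen at the same histological grade. The basal sample was a needle (trucut) biopsy at 12 weeks of age, before treatment. The final sample came from the same tumor code at 19 weeks, after weekly intravenous adriamycin at 1 mg/kg over 6 weeks. Adriamycin (doxorubicin) is an anthracycline that intercalates into DNA and traps topoisomerase II. The labels call the final sample the total tumor whereas the design text calls it a trucut sample, and no untreated tumor of 19 weeks was among the samples. Drug, time, growth and way of sampling therefore cannot be told apart in final minus basal differences. Whether the 5 tumors came from 5 animals is not given in the sources used here, so p-values measure the spread between these tumors. In bulk tissue, fewer cells of a type and less RNA per cell cannot be told apart, which applies to every value below.

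Mast cells store proteases bound to the proteoglycan serglycin in their granules. In rodents they fall into a connective-tissue type, which holds tryptases, carboxypeptidase A3 and the chymase Cma1, and a mucosal type, which holds other chymases and little or no tryptase. Both types depend on signalling from stem cell factor through Kit, and both carry the high-affinity IgE receptor, in which Fcer1a binds the antibody and Ms4a2 and Fcer1g pass the signal on.

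The arrays were alike in overall level, with medians from 5.93 to 6.12 log2 units, but the array of the final 09I1 sample stood apart. Its median correlation with the other 9 arrays was 0.938, against 0.975 to 0.984 for those 9. Its beta-actin signal at the 3′ end exceeded that at the 5′ end by 2.61 log2 units, against 0.72 to 0.96 on the others. The array titles carry consecutive codes within each group, whose meaning is not given in the sources used here, so anything the codes stand for cannot be told apart from the group. Luminal epithelial markers averaged 10.73 to 11.12 log2 units on the basal arrays and 10.59 to 11.24 on the final arrays, so the labelled tissue was present on all 10.

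The promoters of the members are shown because most of the genes shared a sign within a tumor, and because the chymase genes are close copies. RefSeq's GRCr8 table gave a promoter for 8 of the 10 symbols, from 250 bases before to 50 bases after the gene's start. Each was searched on both strands for AGATAA and TGATAA, forms of the motif bound by GATA factors, a family that includes the mast cell regulator Gata2. The motifs differ in their first letter, so no match could be both, and capitals mark the matches. They were found in 4 of the 8, those of Cpa3, Cma1, Mcpt1 and Fcer1a, while 18.9% of all 33469 promoters of 300 bases held 1. The promoters of Tpsab1, Tpsb2, Kit and Hdc held none. The 4 promoters with a match are printed first, followed by that of Mcpt1l1, a neighbour of Mcpt1 with a match in nearly the same place, and that of Tpsab1, whose levels ran beside those of Mcpt1l1.
Cpa3 promoter, GRCr8 chr2:104673188-104673487, minus strand: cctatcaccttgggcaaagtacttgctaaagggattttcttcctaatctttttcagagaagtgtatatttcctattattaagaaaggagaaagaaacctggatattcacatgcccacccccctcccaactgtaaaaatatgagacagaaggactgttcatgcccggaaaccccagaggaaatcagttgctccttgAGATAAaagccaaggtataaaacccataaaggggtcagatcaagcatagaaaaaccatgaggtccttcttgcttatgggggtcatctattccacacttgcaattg
Cma1 promoter, GRCr8 chr15:33390084-33390383, minus strand: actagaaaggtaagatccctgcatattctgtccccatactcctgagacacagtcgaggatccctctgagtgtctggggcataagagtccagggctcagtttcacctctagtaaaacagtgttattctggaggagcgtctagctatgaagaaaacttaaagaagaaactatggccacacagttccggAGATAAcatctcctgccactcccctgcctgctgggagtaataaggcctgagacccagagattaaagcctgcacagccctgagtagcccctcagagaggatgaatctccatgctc
Mcpt1 promoter, GRCr8 chr15:33841356-33841655, plus strand: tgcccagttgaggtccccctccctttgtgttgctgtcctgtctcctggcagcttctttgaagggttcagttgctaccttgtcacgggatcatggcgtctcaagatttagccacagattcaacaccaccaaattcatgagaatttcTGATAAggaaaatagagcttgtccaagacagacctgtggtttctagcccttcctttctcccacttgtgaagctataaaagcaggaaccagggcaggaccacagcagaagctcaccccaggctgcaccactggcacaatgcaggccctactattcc
Fcer1a promoter, GRCr8 chr13:88224630-88224929, minus strand: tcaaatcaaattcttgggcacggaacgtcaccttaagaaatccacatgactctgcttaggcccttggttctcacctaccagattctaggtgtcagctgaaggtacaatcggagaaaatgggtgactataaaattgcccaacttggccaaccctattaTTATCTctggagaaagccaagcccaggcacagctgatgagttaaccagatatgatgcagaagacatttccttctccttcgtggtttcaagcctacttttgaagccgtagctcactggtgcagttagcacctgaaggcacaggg
Mcpt1l1 promoter, GRCr8 chr15:33876846-33877145, minus strand: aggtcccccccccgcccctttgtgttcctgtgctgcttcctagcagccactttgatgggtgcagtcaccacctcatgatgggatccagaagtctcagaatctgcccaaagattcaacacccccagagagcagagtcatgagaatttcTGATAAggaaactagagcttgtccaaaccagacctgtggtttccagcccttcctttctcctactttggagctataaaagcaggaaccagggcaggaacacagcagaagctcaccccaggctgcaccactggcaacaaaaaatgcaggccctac
Tpsab1 promoter, GRCr8 chr10:14867253-14867552, minus strand: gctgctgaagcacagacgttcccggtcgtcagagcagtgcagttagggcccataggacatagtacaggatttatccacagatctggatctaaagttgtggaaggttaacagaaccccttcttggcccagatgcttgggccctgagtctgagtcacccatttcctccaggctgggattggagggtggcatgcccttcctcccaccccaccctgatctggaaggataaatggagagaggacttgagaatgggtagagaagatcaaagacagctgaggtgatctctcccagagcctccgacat
The match began 55 bases before the start of Cpa3, 64 before that of Cma1, 105 before that of Mcpt1, 93 before that of Fcer1a (on the opposite strand) and 103 before that of Mcpt1l1. Among other chymase relatives, the promoters of Mcpt3 and Mcpt4, genes near background on these arrays, held 2 matches each. Those of Mcpt8 and Mcpt9 held none. A match is a description of the letters and not a measured binding site. The promoters of Mcpt1 and Mcpt1l1 were identical at 247 of 283 aligned bases (87.3%), whereas those of Mcpt1 and Cma1 were identical at 70.2% of the aligned bases. The latter is no higher than for Mcpt1 with Tpsab1 (72.0%) or with Tpsb2 (73.0%), and gapped bases were not counted. Cma1, Mcpt1 and Mcpt1l1 all lie on chromosome 15, where the gene order in RefSeq runs Mcpt9, Mcpt1, Mcpt1l1, Mcpt10. Tpsab1 and Tpsb2 are neighbours on chromosome 10.

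The first question was whether the mast cell genes differed between final and basal samples over the 5 tumors. None of the 9 measured members passed the test at an adjusted p of 0.05 in limma, the share called among all 23281 probe sets tested being 0%. At an unadjusted p under 0.05, limma counted 0 members and 935 probe sets, and the paired test named in the study's methods also counted 0 members and 1081 probe sets. The members' mean changes were lower in the final samples for 6 genes and higher for 3, with a median of -0.28 log2 units against 0.014 over all genes. The adjusted p in limma was between 0.977 and 0.982 for each member, and the smallest for any probe set was 0.233. None of the 9 members kept the same sign in all 5 tumors, which 5.83% of all genes did.

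The levels were far from constant, however. Of the 9 members, 8 spanned at least 2 log2 units over the 10 arrays, against 11.8% of all genes, Hdc being the exception at 1.54. Tumors differed in direction, and most members had the same sign within a tumor. In 11D2 and in 29I1 all 9 members were higher in the final sample, with medians of 0.57 and 0.91 log2 units. In 43D1 8 of 9 were lower with a median of -1.20, in 12I1 7 of 9 with a median of -1.04, and in 09I1 7 of 9 with a median of -0.51. Over all genes the median change was -0.02 in 11D2, -0.04 in 29I1, -0.01 in 43D1, 0.05 in 12I1 and 0.15 in 09I1. Higher in 11D2 and 29I1 with lower in 12I1 and 43D1 held for 7 of the 9 members and for 2.03% of all genes, a pattern chosen after the values were seen. Tpsab1 and Kit were the members outside it, since both were higher in 12I1. Being measured in the same samples, the members are not independent observations. Each difference also contains the basal level, so its sign is not independent of how high that tumor stood at basal.

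**Figure D1:**
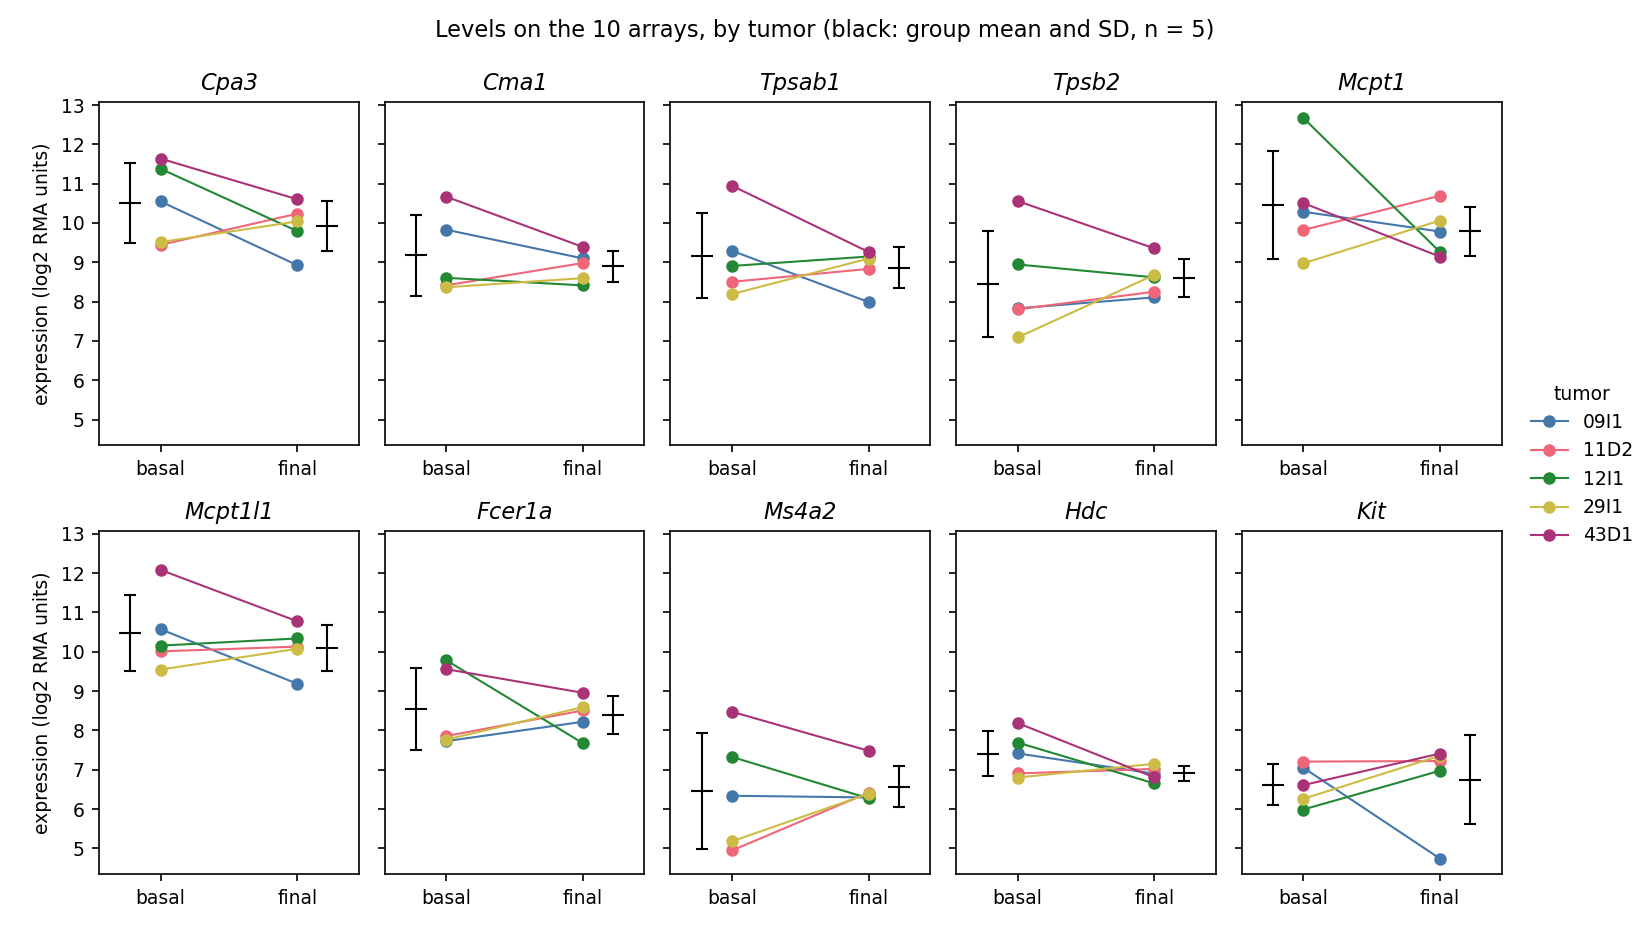
Expression in log2 RMA units (vertical axis) of 9 members and of Mcpt1l1 in the basal and final sample of each tumor, with 1 colored line for each tumor and the group mean and SD over 5 tumors in black. For most genes the basal values spread more widely than the final ones, with tumor 43D1 or 12I1 highest at basal. Probe sets differ in brightness, so panels are not to be compared in level.

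Among the proteases, Cpa3, the exopeptidase of mast cell granules, was measured in the basal samples at 10.55 (09I1), 9.44 (11D2), 11.38 (12I1), 9.51 (29I1) and 11.64 log2 units (43D1). In the final samples it was at 8.93, 10.24, 9.79, 10.04 and 10.60 log2 units in the same order of tumors. The 3 tumors with the highest basal levels, 43D1, 12I1 and 09I1, were lower in the final sample, the other 2 were higher, and the groups overlapped. The basal level is part of each difference, so this split is not independent of the basal ranking. The mean change was -0.58 ± 0.40 log2 units (SE, n = 5; limma adjusted p = 0.977). It was -0.93 without 11D2, -0.32 without 09I1 and -0.055 with arrays weighted by their quality.

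Cma1, counted here with the connective-tissue type, stood at 9.83 (09I1), 8.41 (11D2), 8.60 (12I1), 8.37 (29I1) and 10.67 log2 units (43D1) at basal. Its final levels were 9.10, 8.98, 8.41, 8.60 and 9.39 log2 units in that order. Basal 43D1 and 09I1 were above the others and every final value lay within the basal range, so the groups overlapped. Its mean change came to -0.28 ± 0.27 log2 units (SE, n = 5), and it was -0.03 without 43D1.

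Tryptases are serine proteases that work as heparin-bound tetramers. Tpsab1 was measured at basal at 9.29 (09I1), 8.50 (11D2), 8.91 (12I1), 8.19 (29I1) and 10.95 log2 units (43D1), and in the final samples at 7.99, 8.83, 9.15, 9.10 and 9.26. Basal 43D1 was highest and final 09I1 lowest, and the groups overlapped. Its mean change was -0.30 ± 0.40 log2 units (SE, n = 5). Tpsb2 was at 7.83, 7.80, 8.94, 7.09 and 10.56 log2 units at basal and at 8.11, 8.25, 8.62, 8.68 and 9.35 in the final samples, in the same order. The final values of Tpsb2 lay inside its basal range, which 29I1 and 43D1 bounded, and the mean change was 0.16 ± 0.37 log2 units (SE, n = 5). The highest single difference among the member proteases was that of Tpsb2 in 29I1, 1.59 log2 units.

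Mcpt1 had the widest range of the members, 3.70 log2 units. Basal levels were 10.29 (09I1), 9.82 (11D2), 12.67 (12I1), 8.97 (29I1) and 10.51 log2 units (43D1), and final levels were 9.78, 10.69, 9.26, 10.06 and 9.14. The basal biopsy of 12I1 was 2.17 log2 units above the next highest basal sample, while the final sample of that tumor was the second lowest of its group. The mean change was -0.66 ± 0.63 log2 units (SE, n = 5), and without 12I1 it was 0.02.

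The identity of the Mcpt1 probe set bears on the comparison of connective-tissue with mucosal proteases. In textbook usage the protein rMCP-1 is the rat's connective-tissue chymase and rMCP-2 its mucosal one. The RefSeq record Mcpt1, to which the probe set is assigned, carries rMCP-1 and rMCP-2 together as synonyms, while its neighbour Mcpt1l1 carries Mcpt1 and rMCP-1, and no RefSeq rat gene has Mcpt2 as its symbol. The name thus does not settle which chymase the Mcpt1 probe set measured, and probes of such close copies may take up each other's RNA. The planned test of Cma1 and Mcpt1 against Mcpt2 could not be made. The changes of the Mcpt genes are therefore given side by side with no test. Mcpt1l1, Mcpt9 and Mcpt10 were chosen for this after their values had been seen.

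In 12I1 the change from basal to final was -3.41 log2 units for Mcpt1, -2.39 for Mcpt10, -2.58 for Mcpt9 and -1.35 for Mcpt8. In the same pair of samples it was -0.19 for Cma1, 0.18 for Mcpt1l1, 0.24 for Tpsab1 and -0.33 for Tpsb2. Cpa3, counted with the tryptases and Cma1 in the connective-tissue type, was at -1.59 in that tumor, and Gzmb of the same locus was at -1.05. In 12I1, Cma1, Mcpt1l1 and the tryptases thus differed by less than 0.5 log2 units, while Mcpt1, Mcpt10, Mcpt9, Mcpt8 and also Cpa3 were lower. Whether these changes followed the division into connective-tissue and other proteases was not tested. In 43D1 the change was -1.36 for Mcpt1, -1.28 for Cma1, -1.31 for Mcpt1l1, -1.69 for Tpsab1 and -1.20 for Tpsb2, with -0.25 for Mcpt10. Mcpt8 and Mcpt9 were instead higher in 43D1, by 2.73 and 2.80 log2 units, and in 09I1, by 1.49 and 1.5. Mcpt8 is known as a protease of basophils, and the promoters of Mcpt8 and Mcpt9 were identical at 96.9% of the aligned bases.

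Within each tumor, the change of Mcpt1 minus that of Cma1 was 0.23 (09I1), 0.30 (11D2), -3.22 (12I1), 0.86 (29I1) and -0.08 log2 units (43D1). Its mean was -0.38 ± 1.62 log2 units (SD, n = 5), and without 12I1 the mean was 0.33. The gap between these chymases thus rested on 1 tumor. Mcpt3 and Mcpt4 lay near background, below the lower quartile of their array on 9 and on all 10 arrays. Of the 5 tested relatives at the chymase locus 3 were higher and 2 lower by mean and none passed the limma test. The smallest p there belonged to Gzmb, the granzyme of cytotoxic cells, at 0.90 ± 0.58 log2 units, and to Mcpt8 at 0.70 ± 0.53 (SE, n = 5).

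**Figure D2:**
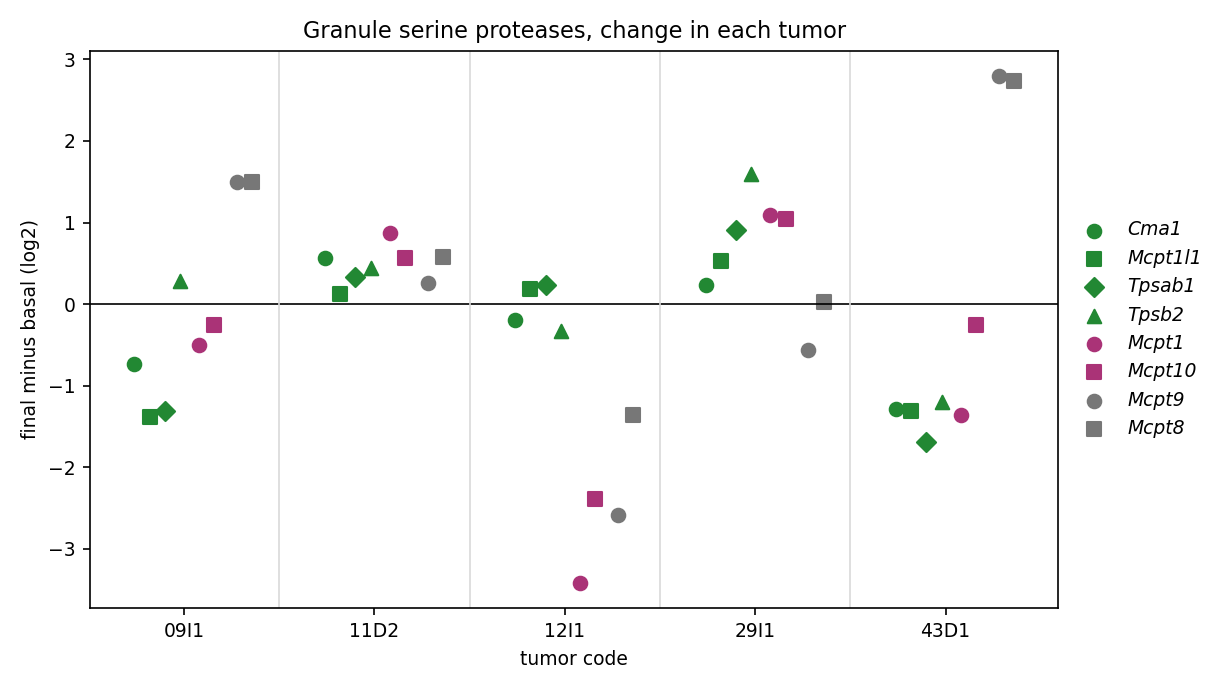
Final minus basal in log2 units (vertical axis) of 8 granule serine proteases in each tumor (horizontal axis), 1 point for each gene, with Cma1, Mcpt1l1 and the tryptases in green, Mcpt1 and Mcpt10 in purple, and Mcpt9 and Mcpt8 in grey. In 12I1 the purple and grey points lie between -3.41 and -1.35 while the green points lie between -0.33 and 0.24, and in 43D1 the grey points at 2.73 and 2.80 lie above green points between -1.69 and -1.20.

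Of the IgE receptor chains, Fcer1a, the chain that binds IgE, was at 7.73 (09I1), 7.86 (11D2), 9.79 (12I1), 7.77 (29I1) and 9.56 log2 units (43D1) at basal. Its final levels were 8.22, 8.51, 7.68, 8.59 and 8.96. Basal 12I1 and 43D1 stood at least 1.70 log2 units above the other 3 basal samples, the final group lay between 7.68 and 8.96, and the groups overlapped. For Fcer1a the mean change was -0.15 ± 0.43 log2 units (SE, n = 5), and it was 0.34 without 12I1.

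Ms4a2, the beta chain that amplifies the receptor's signal, was measured by 2 probe sets. The brighter was at 6.34, 4.95, 7.33, 5.18 and 8.48 log2 units at basal and at 6.30, 6.42, 6.27, 6.39 and 7.48 in the final samples, in the order 09I1, 11D2, 12I1, 29I1, 43D1. Its 4 final values other than that of 43D1 lay within 0.15 log2 units of each other, against basal values spread over 3.53 log2 units. The mean change was 0.12 ± 0.42 log2 units (SE, n = 5). The dimmer probe set, below the lower quartile of its array on 2 arrays, gave 4.85, 4.56, 6.00, 3.87 and 6.93 at basal and 3.49, 5.09, 4.36, 4.66 and 6.10 in the final samples, with a mean change of -0.50 log2 units. The 2 probe sets correlated at r = 0.84 over the 10 arrays and had the same sign in every tumor, while their mean changes differed in sign.

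Hdc, which makes histamine from histidine, was at 7.42 (09I1), 6.91 (11D2), 7.69 (12I1), 6.80 (29I1) and 8.19 log2 units (43D1) at basal and at 6.90, 7.02, 6.65, 7.15 and 6.81 in the final samples. The final values spanned 0.50 log2 units and the basal values 1.39, and the groups overlapped in the lower part of the basal range. Over the 5 tumors the mean change of Hdc was -0.50 ± 0.28 log2 units (SE, n = 5), and Hdc had the smallest unadjusted p of the members in limma.

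Kit, the receptor for stem cell factor, is also made by luminal progenitors of the mammary gland and by melanocytes. It was at 7.05 (09I1), 7.21 (11D2), 5.99 (12I1), 6.26 (29I1) and 6.61 log2 units (43D1) at basal, and at 4.74, 7.22, 6.97, 7.36 and 7.41 in the final samples. The final samples other than that of 09I1 lay between 6.97 and 7.41 log2 units, and the final sample of 09I1 was the lowest of all 10. The mean change was 0.12 ± 0.50 log2 units (SE, n = 5), and without 09I1 it was 0.72, still short of the threshold in limma. On the final array of 09I1, the one that stood apart, all 4 probe sets of the ligand gene Kitlg were lower as well, with differences from -4.43 to -1.40 log2 units. The part of that array's 3′ bias in the value for Kit was not tested. Of the other cells that make Kit, luminal progenitor genes had a median change in 09I1 of 0.36 log2 units (7 of 8 higher). The 2 melanocyte genes tested, Pmel and Sox10, were both higher there, with a median of 0.70. The list of luminal epithelium went the other way in 09I1, with a median of -0.45 log2 units (3 of 12 higher). Sox10 is in both the progenitor and the melanocyte list, and Tyr, Tyrp1, Dct and Mlana were too dim to be tested. The part of any of these cells in the value for Kit was not tested.

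**Figure D3:**
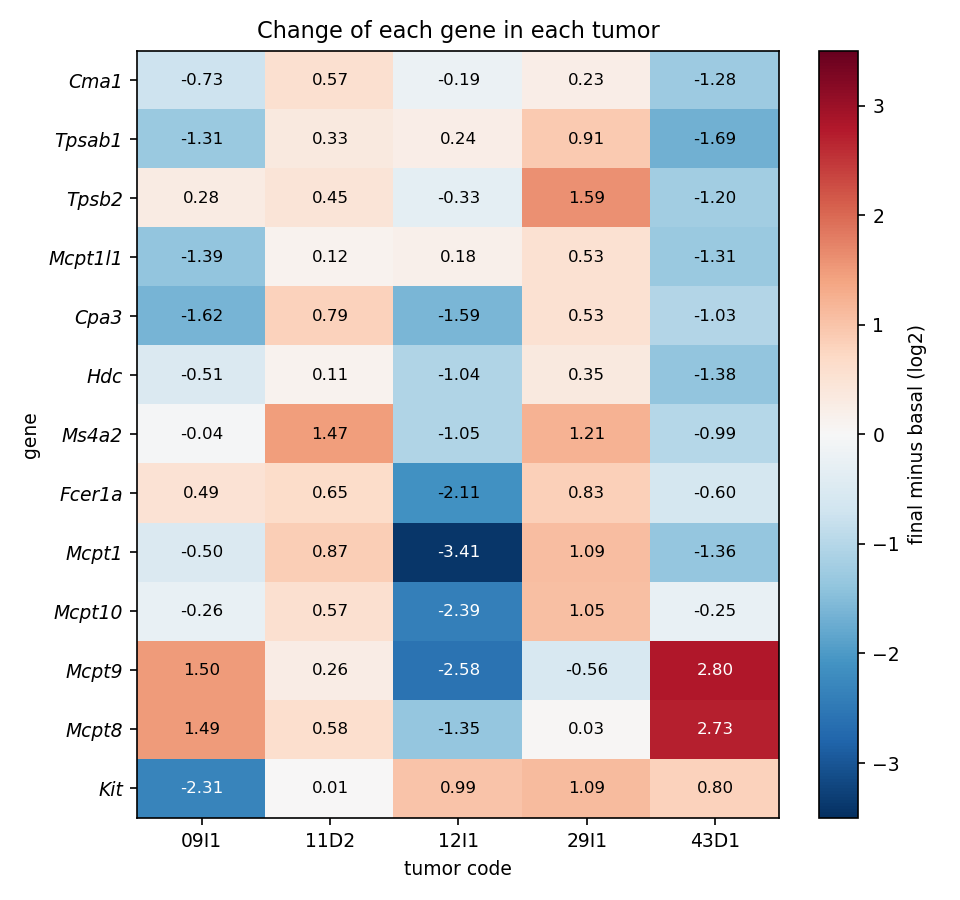
Final minus basal in log2 units, printed and colored, for 9 members and 4 chymase relatives (rows) in each tumor (columns). The columns 11D2 and 29I1 hold positive values for each of the 9 members, while 12I1 and 43D1 hold mostly negative ones, and Kit in 09I1 stands at -2.31.

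The highest of the 10 arrays was the basal biopsy of 43D1 for 6 members (Cpa3, Cma1, Tpsab1, Tpsb2, Ms4a2 and Hdc) and that of 12I1 for 2 (Mcpt1 and Fcer1a). The SD over the 5 final samples was below that over the 5 basal samples for 8 of the 9 members, Kit being the exception, against 39.1% of all genes. For Hdc the SD was 0.57 at basal and 0.19 at final, for Cma1 1.03 and 0.39, for Ms4a2 1.48 and 0.51, and for Tpsb2 1.36 and 0.48 log2 units. Without 09I1 it was lower at final for all 9 members, but the share over all genes was then 64.1%.

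Over the 10 arrays, which share tumors in pairs, the members' levels ran together to different degrees, given here as a description. Cpa3 correlated at r = 0.82 with Ms4a2 and with Hdc and at 0.80 with Tpsab1. Without the 2 arrays farthest from the median of Cpa3, r was 0.61 with Ms4a2, 0.42 with Hdc and 0.89 with Tpsab1. Tpsb2 and Ms4a2 reached 0.92, Fcer1a and Ms4a2 0.82, and Tpsab1 and Tpsb2 0.85. Without the 2 arrays farthest from the median of the first gene of each pair, these were 0.82, 0.71 and 0.72. Mcpt1 had r = 0.67 with Fcer1a and 0.11 with Cma1. When the basal array of 12I1 was left out, these were 0.38 with Fcer1a and 0.53 with Cma1, so the order of the 2 rested on that array. Tpsab1 and Mcpt1l1, genes of different chromosomes and promoters, reached 0.98, whereas Mcpt1 and Mcpt1l1 gave 0.15. Kit had r = 0.26 with Cpa3, and -0.36 without the final array of 09I1.

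The genes outside the members whose levels were most like those of Cpa3 over the 10 arrays were Aff1 (r = 0.91), Epb41 (0.90), Ipo7 (0.89), Arg1 (0.88) and Edem1 (0.88), of 12246 genes ranked. Of known mast cell genes, Mcpt10 ranked 10 with r = 0.86 and Slc18a2, the transporter that loads histamine into granules, ranked 18 with 0.83. Mcpt1l1 ranked 30 with 0.81, and Hpgds, which makes prostaglandin D2, ranked 100 with 0.74. Without the 2 arrays farthest from the median of Cpa3, r was 0.65 for Mcpt10, 0.66 for Slc18a2, 0.90 for Mcpt1l1 and 0.46 for Hpgds. Gata2 had r = 0.63 with Cpa3, 0.90 without the final array of 09I1 and -0.046 without the 2 arrays farthest from the median of Cpa3. Il9r (r = -0.14, rank 6365) and Enpp3 (-0.40, rank 8995) had negative values, which were 0.29 and 0.33 without those 2 arrays.

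The other genes of the pathway were taken as lists, and 0 genes of any of them passed the limma test. Of 19 genes tested of IgE receptor signalling, 7 had a higher and 12 a lower mean in the final samples, with a median change of -0.04 log2 units. The smallest p in that list belonged to Rab27b, a granule transport GTPase, at 0.34 ± 0.16 log2 units (SE, n = 5), and to Vamp8, a granule fusion protein, at 0.24 ± 0.12. Fcer1g, the receptor's signalling chain, which macrophages and NK cells make too, had a mean change of -0.08 ± 0.30 log2 units. It was -1.37 in 29I1, where Fcer1a was 0.83 and Ms4a2 1.21 higher.

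Of 12 genes for granule content and mediators 1 was higher and 11 lower by mean, with a median of -0.05 log2 units. Ptgs1, the cyclooxygenase on the way to prostaglandin D2, had the smallest p at -0.72 ± 0.30 log2 units (SE, n = 5; limma adjusted p = 0.977), and the serotonin transporter Slc6a4 followed at -0.36 ± 0.20. Srgn, the serglycin core protein, was at -0.17 ± 0.25 and Hpgds at -0.06 ± 0.23. Hpgds and Slc18a2 had the members' signs in 11D2, 12I1, 29I1 and 43D1, at 0.29, -0.67, 0.66 and -0.55 log2 units for Hpgds and 0.29, -0.54, 0.65 and -0.30 for Slc18a2. The list as a whole did not share this pattern. Its median was 0.03 in 11D2 (6 of 12 higher), -0.61 in 12I1 (2 of 12), -0.02 in 29I1 (6 of 12) and -0.12 in 43D1 (5 of 12). Of 6 histamine receptors and breakdown enzymes only Hrh3 (-0.07 ± 0.13) and Hrh1 (0.07 ± 0.17) were tested, and the enzymes Hnmt and Aoc1 lay below the lower quartile on all 10 arrays.

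Of 12 growth and lineage genes tested, 6 were higher and 6 lower by mean. Il9r, a receptor of the mast cell growth factor IL-9, had the smallest p at 0.81 ± 0.21 log2 units (SE, n = 5; limma adjusted p = 0.977) and was higher in 5 of 5 tumors, at dim levels of 4.0 to 5.74 log2 units. Il3ra followed at -0.24 ± 0.17. Kitlg, which encodes stem cell factor, was at -0.14 ± 0.32, Mitf at 0.30 ± 0.23 and Gata2 at -0.04 ± 0.34 log2 units. Gata2 by tumor was 0.71 (09I1), 0.44 (11D2), -1.24 (12I1), 0.77 (29I1) and -0.87 (43D1), the signs of Fcer1a in each tumor. Of 7 other receptors on mast cells, Enpp3, the basophil and mast cell surface enzyme CD203c, was 0.60 ± 0.16 log2 units higher (SE, n = 5; limma adjusted p = 0.977) in 5 of 5 tumors, and Cd200r1 was at 0.18 ± 0.41.

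Lists for other cells in the samples did not share the members' signs in every tumor, nor did the other mast cell lists. In 29I1 and 43D1 the median changes were -0.41 and 0.16 log2 units for IgE receptor signalling (4 and 17 of 19 higher). They were -0.24 and 0.29 for growth and lineage genes, and -0.49 and 0.59 for other mast cell receptors. Granule and mediator genes stood at -0.02 and -0.12. In 29I1, where all 9 members were higher, the median change was -1.32 log2 units for macrophage genes (1 of 11 higher), -1.59 for fibroblast genes (0 of 12) and -0.64 for T and NK cell genes (2 of 12). In 43D1, where 8 of 9 members were lower, it was 1.20 for macrophage genes (11 of 11 higher) and 1.21 for T and NK cell genes (12 of 12). It was 1.79 for the 4 tested genes of eosinophils and basophils, which were uneven: Ccr3 3.0, Mcpt8 2.73, Alox15 0.85 and Prg2 0.11. Epx, Il5ra and Siglec5 of that list lay below the lower quartile of their array on all 10 arrays and were not tested. In 12I1 the median change was -0.82 for macrophage genes (0 of 11 higher), 0.73 for fibroblast genes (12 of 12) and -1.02 for eosinophil and basophil genes (1 of 4). Across arrays the mean macrophage level lay between 8.33 and 10.25 log2 units at basal and between 8.76 and 9.68 at final, and the mean T and NK cell level between 5.09 and 7.52 and between 6.28 and 7.02.

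In 11D2 the final sample also held skeletal muscle RNA, with 11 of 11 muscle genes higher and a median change of 4.81 log2 units, to a mean level of 9.73 against 4.38 to 5.27 in the basal samples. Adipocyte genes were higher there in 10 of 10 with a median of 1.57, and fibroblast genes in 12 of 12 with a median of 0.99. The part of such tissue in the members' values in 11D2 was not tested. In 29I1, where the members were higher as well, the medians were 0.33 for muscle, -0.60 for adipocyte and -1.59 for fibroblast genes.

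**Figure D4:**
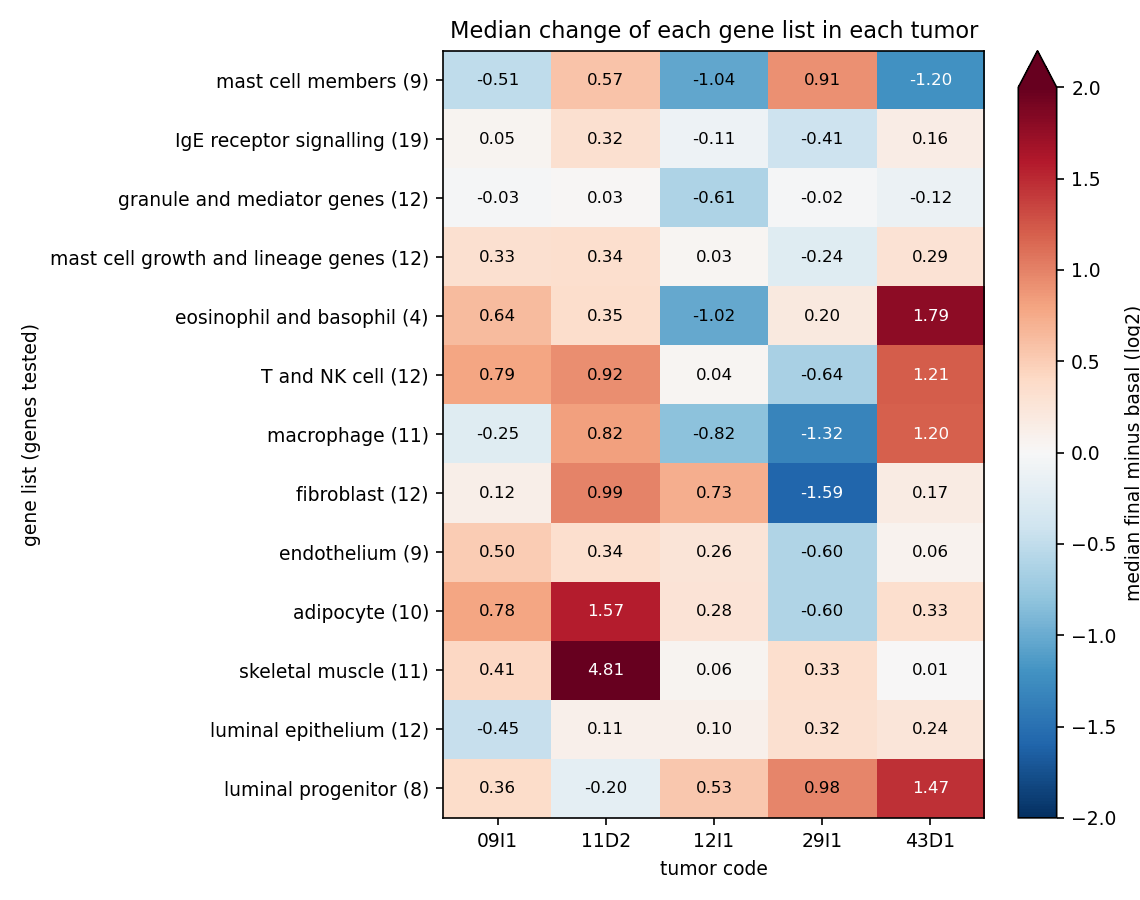
Median final minus basal in log2 units, printed and colored (the color scale ends at 2 log2 units), over the tested genes of 13 lists (rows, with the number of genes) in each tumor (columns). The row of the members turns from 0.57 in 11D2 and 0.91 in 29I1 to -1.20 in 43D1, while the macrophage row has the opposite sign in 29I1 and 43D1 and the same sign in the other 3 tumors.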

How the data were processed

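RNA from 5 basal and 5 final tumor samples was hybridized to 1-color arrays. The deposited values are log2 expression per probe set, made by the authors with the robust multichip average (RMA), per the series design text and the submitters' processing notes. The log2 scale was read from the values, and precision is limited by having 5 arrays in each group. The genome build of the probe design is not given in the sources used here.

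Of 31099 probe sets, 20832 had 1 gene symbol in the platform annotation, 436 several and 9831 none. After leaving out 57 control probe sets and the 25% with the lowest mean (below 4.11), 23281 were tested. The fit used limma (version 3.58.1, under R 4.3.3) and took the tumor code as a block, with a variance trend and Benjamini-Hochberg adjustment over all of them, and the fitting was tested on simulated data. The tumor codes pair the samples by design, although the deviations of paired samples correlated weakly (0.072, 0.095, 0.014, -0.15 and 0.22). A gene is its brightest tested probe set. Symbols matched RefSeq's GRCr8 table for each of the 9 measured members.

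Named were all members, the 2 genes with the smallest p in each mast cell list, 7 known mast cell genes and the 5 genes most like Cpa3. Genes named outside this rule are the Mcpt relatives, Slc18a2 and Aoc1, chosen after their values were seen. The members and lists were chosen with earlier results of these data known. Mcpt2 had no probe set of its own, so the planned exact tests of Cma1 and Mcpt1 against it were replaced by values without a test. Alternatives changed the block, the filter, the scaling, the weights, the variance trend, the test, the probe set and the tumors included.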

Additional observations from a re-analysis of the deposited data

Results flagged for a closer look

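Among 39 sets of 5 values checked for a sample far from the others, 2 were marked, where chance marks about 1 in 20, or 1.95 here. The Kit level in the final sample of 09I1, 4.74 log2 units, lay far below the other 4 final samples; it is from the array with the strongest 3′ bias. The Ms4a2 level in the final sample of 43D1, 7.48 log2 units, lay far above the other 4, and the basal sample of that tumor was the highest at basal too.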

How the results depend on the processing

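In each alternative 0 probe sets and 0 members passed the threshold, while between 465 and 2440 probe sets, and 0 or 1 member, had an unadjusted p under 0.05. With no replicate block, in place of the paired fit, 0 were called and 955 had an unadjusted p under 0.05. Of 136 alternative values for the 9 members 124 kept their sign and 12 did not. Their adjusted p ran from 0.527 to 0.999, from limma except in the setting with the paired t-test. The change of Cma1 turned to 0.0033 with array weights, and that of Ms4a2 to -0.19 as the mean of its probe sets and -0.50 with the second alone. With array weights the change of Cpa3 was -0.055. Leaving out 1 tumor at a time, the change ranged from -0.93 to -0.32 for Cpa3 (without 11D2 and 09I1), from -0.49 to -0.03 for Cma1 (11D2, 43D1), from -0.71 to -0.27 for Hdc (29I1, 43D1), from -0.39 to 0.34 for Fcer1a (without 29I1 and 12I1), from -0.13 to 0.72 for Kit (29I1, 09I1), from -1.10 to 0.023 for Mcpt1 (29I1, 12I1), from -0.22 to 0.41 for Ms4a2 (11D2, 12I1), from -0.61 to 0.042 for Tpsab1 (29I1, 43D1) and from -0.20 to 0.50 for Tpsb2 (29I1, 43D1). The members' median ranged from -0.46 to -0.03. The Mcpt1 minus Cma1 change ranged from -0.69 to 0.33. The planned comparison with Mcpt2 was not run, for want of a probe set. The SD of the change between the 5 tumors was 0.74 log2 units or more for each member, above each mean change in size.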

Other observations

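No mast cell member had the same sign in every tumor, whereas 1 tested marker of eosinophils and basophils did. Ccr3, the eotaxin receptor, was 1.30 ± 0.37 log2 units higher in the final samples (SE, n = 5; limma adjusted p = 0.977) and higher in 5 of 5 tumors, with differences of 0.94 (09I1), 1.69 (11D2), 0.49 (12I1), 0.37 (29I1) and 3.0 (43D1). The same sign in all 5 tumors held for 5.83% of all genes. Levels of Ccr3 were dim, from 3.42 to 4.21 at basal and from 4.35 to 6.42 at final. They lay below the lower quartile of their array on 4 arrays, so the change was measured from near background. Alox15, a lipoxygenase of eosinophils and macrophages, was instead lower in 4 of 5 tumors, at -1.17 ± 0.52 log2 units, with -3.31 in 12I1. Il33, an epithelial alarmin that acts on mast cells through Il1rl1, was 5.20 log2 units higher in 43D1, where 8 of 9 mast cell genes were lower, and its second probe set gave 5.69. In 12I1, where 7 of 9 were lower, Il33 was lower too, at -1.67 and -1.87 log2 units on its probe sets. Over the 5 tumors its mean change was 0.78 ± 0.87. These genes were chosen after their values were seen.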
